A study of Sus scrofa and Rattus norvegicus with 8 samples.

Results

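The 10 genes described here carry long-chain fatty acids into the mitochondrion and through the chain-shortening reactions of its matrix. They were chosen by symbol as ACSL1, CPT1A, CPT1B, CPT2, ACADVL, ACADM, ACADL, HADHA, HADHB and ETFDH. All 10 had an Ensembl gene ID in the deposited pig table, among 14844 named nuclear genes and 25880 IDs in all. RNA-seq libraries depleted of ribosomal RNA were available from the upper layer of backfat, a subcutaneous white fat depot, of 6 adult female Bama pigs aged 2 years. The animals formed 1 group with no treatment and no contrast, and each library was 1 animal, so values are levels with the spread between pigs. The series also holds 2 pools of rat inguinal fat from 32-week-old females, which were not analysed here because the choice of genes covers the pig table.

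Fatty acid oxidation begins when an acyl-CoA synthetase couples the fatty acid to coenzyme A. The carnitine palmitoyltransferases (CPT) then pass long acyl chains across the mitochondrial membranes, with the outer membrane enzyme CPT1 as the controlled step. In the matrix, acyl-CoA dehydrogenases, a hydratase, a hydroxyacyl-CoA dehydrogenase and a thiolase remove acetyl-CoA units in repeated rounds, and the electrons of the dehydrogenase step reach ubiquinone through the electron transfer flavoprotein and ETFDH. White adipocytes are known mainly for storing and releasing fatty acids, and brown adipocytes and muscle for burning them.

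TPM is a length-corrected abundance on a fixed total for each library, so levels of different genes within a library are comparable per length. The fixed total was shared unequally here. Named nuclear genes held 24.1% to 26.3% of the TPM in replicates 1, 2, 3 and 6, against 3.34% in replicate 4 and 4.73% in replicate 5. The 13 mitochondrially encoded genes held 10.8% to 21.2% in the first 4 and 0.209% and 0.298% in replicates 4 and 5. Each gene is therefore also given as rescaled TPM, for which the named nuclear genes of each library were scaled to a total of 1000000. The tissue label was checked against 8 adipocyte genes, all of which were present, with FABP4, a fatty acid binding protein, at 10370 to 28926 rescaled TPM. Of 6 genes that mark thermogenic fat, UCP1 and CIDEA had no ID. COX7A1 lay between 12.9 and 36.9 rescaled TPM and was higher in both replicates 4 and 5, as were 9.63% of named nuclear genes tested. DIO2, PPARGC1A and ELOVL3 had means of 1.53, 0.653 and 0.254 rescaled TPM. As deposited they were above 0.1 TPM in 5, 4 and 2 of the 6 pigs, PPARGC1A in all but replicates 4 and 5. On the rescaled scale PPARGC1A was also lower in both, as were 48.3% of named nuclear genes tested. Other cell types were present as well, and in bulk tissue fewer cells of a type and less RNA per cell cannot be told apart.

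All 10 fatty acid oxidation genes were above 0.1 TPM in all 6 pigs, as were 67.2% of named nuclear genes. The median of their mean levels was 18.3 TPM as deposited and 113.4 rescaled TPM. Over the 13352 named nuclear genes above 0.1 TPM in at least 1 library it was 4.18 TPM and 21.2 rescaled TPM. Of the 10 genes, 9 lay above that overall median. CPT1B was the exception. Together the 10 genes made up 0.139% ± 0.0382 (SD, n = 6) of named nuclear TPM, and replicates 1 to 6 held 0.104%, 0.128%, 0.140%, 0.150%, 0.208% and 0.105%. The share was highest in replicate 5. Without replicates 4 and 5 it was 0.119% ± 0.0176 (SD, n = 4).

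ACSL1, the long-chain acyl-CoA synthetase that activates fatty acids (ENSSSCG00000015784), was among the most abundant of the 10. Its level was 198.5 rescaled TPM in replicate 1, 297.6 in replicate 2, 330.0 in replicate 3, 228.3 in replicate 4, 468.9 in replicate 5 and 155.4 in replicate 6. Replicate 5 was high and replicate 6 low. The mean was 279.8 ± 112.5 rescaled TPM (SD, n = 6), at percentile 96.2 of the same 13352 named nuclear genes. As deposited, ACSL1 ranged from 7.63 TPM in replicate 4 to 86.4 TPM in replicate 3. The gene lies on the minus strand of chromosome 15 from 45866858 to 45936327 (Sscrofa11.1, RefSeq annotation) with 21 exons.

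The 3 carnitine palmitoyltransferase genes had the lowest means of the 10. CPT1A, which encodes the outer membrane enzyme abundant in liver (ENSSSCG00000012880, chromosome 2, 4250642 to 4293914, plus strand), was at 18.1 rescaled TPM in replicate 1, 62.8 in replicate 2, 44.98 in replicate 3, 14.2 in replicate 4, 12.2 in replicate 5 and 25.8 in replicate 6. Replicates 2 and 3 stood above the rest. The mean was 29.7 ± 20.1 rescaled TPM (SD, n = 6), and the coefficient of variation (CV, the SD over the mean) of 0.678 was the largest of the 10 genes, at percentile 95.96 of those named nuclear genes whose mean reached 1 TPM.

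CPT1B encodes the isoform known from muscle (ENSSSCG00000022364, chromosome 5, 155552 to 163536, plus strand). It was at 7.06 rescaled TPM in replicate 1, 12.1 in replicate 2, 11.05 in replicate 3, 4.46 in replicate 4, 4.50 in replicate 5 and 18.97 in replicate 6. Replicate 6 was the highest, and the mean was 9.69 ± 5.57 rescaled TPM (SD, n = 6). The deposited values ran from 0.149 to 4.997 TPM. Of 9 skeletal muscle markers, 4 had an ID (ACTA1, CKM, TNNT3 and TNNI2). As deposited, ACTA1 and CKM were above 0.1 TPM in all pigs but replicates 4 and 5, TNNT3 in 2 of 6 and TNNI2 in 3 of 6. The 4 genes summed to 2.00 to 14.1 rescaled TPM, highest in replicate 2. The gene CHKB ends 375 bases before the start of CPT1B on the same strand. The part of muscle RNA or of CHKB transcripts in the CPT1B level was not tested.

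CPT2, the inner membrane enzyme that returns the acyl group to coenzyme A (ENSSSCG00000003851, chromosome 6, 159038129 to 159061327, minus strand), ranged from 14.7 rescaled TPM in replicate 4 through a median of 32.3 to 51.8 in replicate 2. Its mean was 31.5 ± 12.6 rescaled TPM (SD, n = 6). The 3 genes summed to 54.9 rescaled TPM in replicate 1, 126.7 in replicate 2, 91.2 in replicate 3, 33.4 in replicate 4, 39.3 in replicate 5 and 79.7 in replicate 6, a CV of 0.499. Replicate 2 was the highest of the sums and replicates 4 and 5 the lowest.

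ACADM, the medium-chain acyl-CoA dehydrogenase (ENSSSCG00000003776, chromosome 6, 137541481 to 137575544, minus strand), had the highest mean of the 10 genes. It was at 218.7 rescaled TPM in replicate 1, 273.7 in replicate 2, 290.8 in replicate 3, 406.7 in replicate 4, 501.5 in replicate 5 and 241.7 in replicate 6. Replicates 4 and 5 were the highest, and the mean was 322.2 ± 109.4 rescaled TPM (SD, n = 6). As deposited the same 2 libraries were the lowest, at 13.6 and 23.7 TPM against 54.7 to 76.1 TPM in the other 4.

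ACADL, the long-chain acyl-CoA dehydrogenase (ENSSSCG00000016156, chromosome 15, 112935631 to 112969381, minus strand), was at 108.0 rescaled TPM in replicate 1, 102.8 in replicate 2, 119.0 in replicate 3, 145.4 in replicate 4, 262.7 in replicate 5 and 109.1 in replicate 6. Replicate 5 stood apart from the rest. Its mean was 141.2 ± 61.4 rescaled TPM (SD, n = 6), and its CV fell from 0.435 to 0.0617 when replicates 4 and 5 were left out.

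ACADVL encodes the very-long-chain acyl-CoA dehydrogenase of the inner membrane (ENSSSCG00000017947, chromosome 12, 52573521 to 52581755, plus strand). On the rescaled scale it was the steadiest of the 10, at 45.3 rescaled TPM in replicate 1, 46.5 in replicate 2, 46.0 in replicate 3, 44.5 in replicate 4, 46.1 in replicate 5 and 40.98 in replicate 6. Its CV of 0.0457 lay at percentile 0.167, which means that very few genes varied less between these pigs once rescaled. As deposited its CV was 0.603, from 1.49 to 12.05 TPM, and after a correction for GC content and length (each gene set against genes alike in both) it was 0.381. The gene body overlaps those of DLG4 by 501 bases and DVL2 by 69 bases, both on the opposite strand.

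HADHA and HADHB encode the alpha and beta subunits of the mitochondrial trifunctional protein, which carries out the hydratase, hydroxyacyl-CoA dehydrogenase and thiolase steps for long chains. HADHA (ENSSSCG00000008571) was at 81.2 rescaled TPM in replicate 1, 86.9 in replicate 2, 79.7 in replicate 3, 96.1 in replicate 4, 91.1 in replicate 5 and 78.6 in replicate 6. HADHB (ENSSSCG00000008569) was at 131.1, 137.0, 154.2, 203.2, 260.6 and 134.7 rescaled TPM in replicates 1 to 6. The alpha subunit gene was nearly level across pigs, with a CV of 0.0820, and the beta subunit gene varied more, with a CV of 0.304 and its highest values in replicates 4 and 5. Their means were 85.6 ± 7.02 and 170.1 ± 51.8 rescaled TPM (SD, n = 6).

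The subunit genes lie head to head on chromosome 3 of Sscrofa11.1, HADHB on the minus strand from 112712894 to 112753121 and HADHA on the plus strand from 112753343 to 112797627. The 221 bases between their annotated starts, chr3:112753122-112753342, are shown because the annotated starts of both genes of the complex flank this stretch. Start sites were not measured. The sequence is from the RefSeq assembly, plus strand, with each CpG in capitals.

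HADHB to HADHA: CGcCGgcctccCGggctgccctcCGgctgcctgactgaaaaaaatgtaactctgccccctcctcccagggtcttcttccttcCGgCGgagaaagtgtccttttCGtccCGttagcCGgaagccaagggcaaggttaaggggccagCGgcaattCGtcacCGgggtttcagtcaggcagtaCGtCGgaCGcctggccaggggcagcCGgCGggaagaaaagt

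The stretch is 62.9% GC and holds 17 CpG dinucleotides, beside a median of 57.6% GC over the windows of 250 bases upstream of 19534 annotated genes. The motifs searched on both strands were the Sp1 box GGGCGG, the CCAAT box, the nuclear receptor half-site with letters AGGTCA, and the estrogen-related receptor element with letters TCAAGGTCA, which contains the half-site. None of the 4 occurred in the stretch. The Sp1 box occurs in 45.9% of all upstream windows, the CCAAT box in 31.9%, the half-site in 12.2% and the longer element in 0.333%. Among the 10 genes' own windows the Sp1 box occurred in 4 (ACADL, ACADM, ACADVL and ETFDH), the CCAAT box in 3 (ACSL1, CPT1A and ETFDH), the half-site in that of CPT2, and the longer element in none. These are matches of letters and not measured binding sites.

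ETFDH, the inner membrane enzyme that hands electrons from the electron transfer flavoprotein to ubiquinone (ENSSSCG00000008877, chromosome 8, 47608499 to 47655889, plus strand), was at 206.1 rescaled TPM in replicate 1, 209.6 in replicate 2, 289.5 in replicate 3, 342.2 in replicate 4, 405.7 in replicate 5 and 212.1 in replicate 6. Its mean was 277.5 ± 83.4 rescaled TPM (SD, n = 6), close to that of ACSL1. Its transcribed region overlaps that of C8H4orf46, on the opposite strand, by 51 bases.

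**Figure D1:**
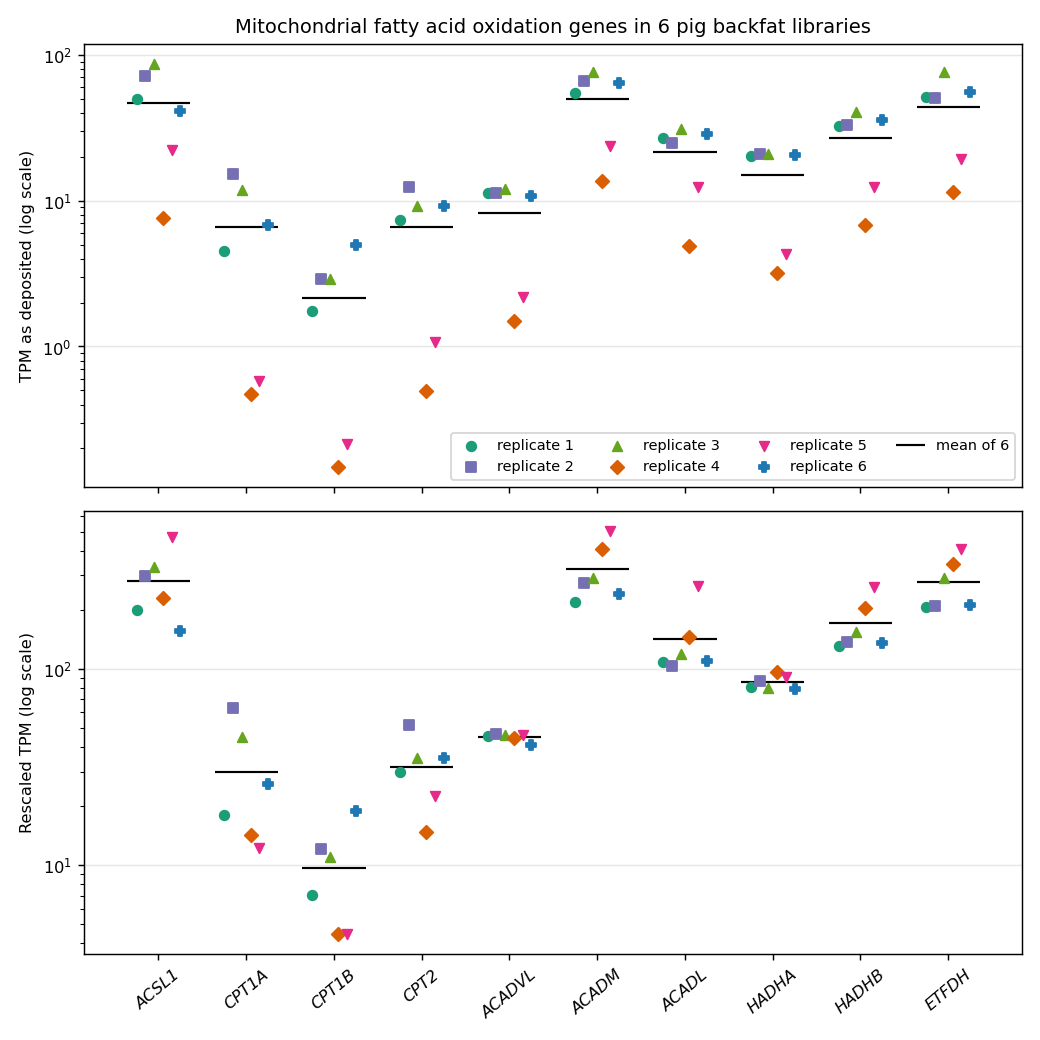
Level of each of the 10 genes in each pig library, as deposited TPM (upper) and as rescaled TPM (lower), both on log axes, with points for the 6 replicates and a line at their mean. Replicates 4 and 5 lie lowest for all 10 genes as deposited, whereas after rescaling they lie highest for ACADM and lowest for CPT1B, the latter not so after median-centring.

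In order of mean rescaled TPM the genes ran ACADM, ACSL1, ETFDH, HADHB, ACADL, HADHA, ACADVL, CPT2, CPT1A and CPT1B, and the highest mean was 33.2 times the lowest. CPT1B ranked 10 and HADHA ranked 6 in every library. Of the 9 pairs of neighbours in this order, 4 stood the same way round in all 6 pigs. These were ETFDH above HADHB, ACADL above HADHA, HADHA above ACADVL, and CPT1A above CPT1B, with mean log2 ratios of 0.70 ± 0.11, 0.64 ± 0.45, 0.93 ± 0.11 and 1.55 ± 0.66 (SD, n = 6). The other 5 pairs changed order between pigs. ACADM was above ACSL1 in 4 of 6, ACSL1 above ETFDH in 3 of 6, HADHB above ACADL in 5 of 6, ACADVL above CPT2 in 5 of 6 and CPT2 above CPT1A in 4 of 6.

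Ratios of related genes within a library do not depend on the scale of that library, and 6 were tested over the pigs with an exact two-sided sign-flip permutation test, adjusted over the 6 ratios by Benjamini-Hochberg. With 6 pigs the smallest p the test allows is 0.03125. The p measures only whether a ratio keeps its direction over the pigs. An error fixed to a gene and shared by all libraries stays in the ratio, and its part was not tested. The paired genes can differ in GC content and length, as ACADVL (59.0%, 4417 bases) and ACADM (37.4%, 1830 bases) do. CPT1A exceeded CPT1B in 6 of 6 pigs, by 2.93-fold on the geometric mean, from 1.36-fold in replicate 6 to 5.18-fold in replicate 2 (exact permutation p = 0.03125, adjusted p = 0.0375). CPT1A and CPT2 were not separated: CPT1A was higher in 2 of 6 pigs, in replicates 2 and 3, and the mean log2 ratio was -0.24 ± 0.52 (SD, n = 6, exact permutation p = 0.28125, adjusted p = 0.28125).

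The 3 dehydrogenase genes kept the same order in every pig, with ACADM above ACADL and ACADL above ACADVL. ACADM exceeded ACADVL by 6.87-fold, from 4.83-fold in replicate 1 to 10.9-fold in replicate 5. ACADL exceeded ACADVL by 2.96-fold, from 2.21-fold in replicate 2 to 5.70-fold in replicate 5. ACADM exceeded ACADL by 2.32-fold, from 1.91-fold in replicate 5 to 2.80-fold in replicate 4. Each of these was 6 of 6 pigs one way (exact permutation p = 0.03125, adjusted p = 0.0375 for each).

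HADHB exceeded HADHA by 1.93-fold in 6 of 6 pigs (exact permutation p = 0.03125, adjusted p = 0.0375). HADHA per HADHB was 0.619, 0.634, 0.517, 0.473, 0.350 and 0.584 in replicates 1 to 6. The ratio was lowest in replicates 4 and 5. Without those 2 libraries HADHB still exceeded HADHA in all 4, by 1.70-fold, and ACADM exceeded ACADVL by 5.70-fold. The smallest p the exact test allows is then 0.125, so neither can pass it with 4 libraries.

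**Figure D2:**
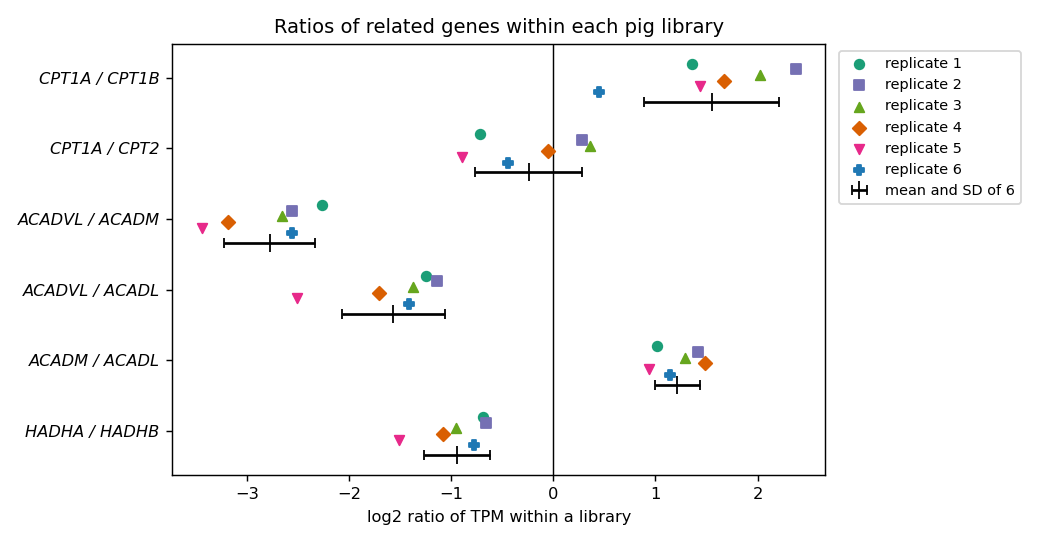
Log2 ratio of TPM between related genes within each pig library, with a point for each of the 6 replicates and, beneath them, the mean with its SD. The ratio of CPT1A to CPT2 lies on both sides of 0, and each of the other ratios on one side in all 6 libraries.

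The 10 genes varied between pigs to a degree that depended on the scale. Their median CV was 0.593 for TPM as deposited, beside 0.688 over the 10189 named nuclear genes whose mean reached 1 TPM. It was 0.370 after rescaling, beside 0.297, and 0.151 after rescaling without replicates 4 and 5, beside 0.170. On the rescaled scale ACADVL and HADHA had low CVs with and without those libraries, 0.0568 and 0.0450 in the remaining 4, but over all 6 their CVs were 0.381 and 0.247 after correction for GC content and length. CPT1A and CPT1B varied with and without them, with CVs of 0.530 and 0.402 in the remaining 4.

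Among themselves the genes fell into unlike profiles across the pigs. Likeness was taken as the root mean square distance between log2 rescaled levels, each gene centred on its own mean over the 6 pigs. ACADM and HADHB were the closest pair at 0.0923, followed by HADHB and ETFDH at 0.101 and ACADVL and HADHA at 0.103, whereas CPT1A and ACADL were farthest apart at 1.22. The 5 named nuclear genes nearest to the median profile of the 10, among 8841 searched with a median distance of 0.495, were ANXA5 at 0.0510, TMBIM4 at 0.0569, ACSL3 at 0.0613, GOLT1B at 0.0655 and RPN2 at 0.0709. ACSL3 is another acyl-CoA synthetase, and ANXA5 encodes a phospholipid-binding annexin. The 10 genes' own distances to that median profile ran from 0.170 for HADHA to 0.915 for CPT1A. Each of the 10 thus lay farther from it than the 5 named. These distances describe 6 animals and carry no test.

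**Figure D3:**
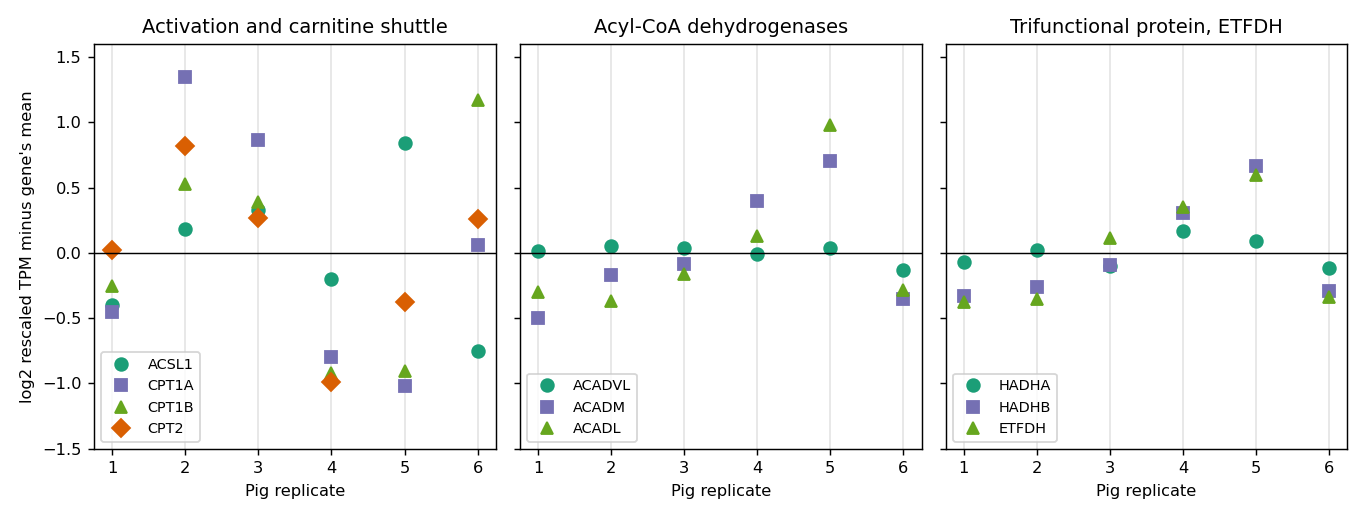
Log2 rescaled TPM of each gene minus its own mean over the 6 pigs, by replicate, in 3 panels by role. In replicates 4 and 5 CPT1A, CPT1B and CPT2 lie below their means while ACADM, ACADL, HADHA, HADHB and ETFDH lie above theirs, and ACADVL stays near 0 throughout. After median-centring or quantile normalization the 3 transferase genes were not below the other libraries in both.

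The contrast between replicates 4 and 5 and the other 4 is a description of libraries that hold little named nuclear TPM, not of groups of the study. As deposited, all 10 genes were lower in both than in each of the other 4, as were 95.7% of the 13352 named nuclear genes above 0.1 TPM in at least 1 library. After rescaling the genes moved in both directions. ACADM, ACADL, HADHA, HADHB and ETFDH (5 of 10) were higher in both, beside a background of 9.63% of genes, and lower in both as deposited. After median-centring and after quantile normalization the count was 6 (these 5 and ACADVL), beside backgrounds of 29.6% and 26.7%. The transferase genes CPT1A, CPT1B and CPT2 (3 of 10) were lower in both after rescaling, beside a background of 48.3%, but none of the 3 was so after median-centring or quantile normalization. ACSL1 and ACADVL overlapped between the 2 sets of libraries on the rescaled scale.

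In log2 rescaled TPM, the mean of replicates 4 and 5 minus that of the other 4 had a median of -0.48 over 10170 genes, so the 10 genes are best read beside that shift, and their own median was 0.34. The difference was 0.83 for ACADM, 0.83 for ACADL, 0.73 for HADHB, 0.72 for ETFDH and 0.20 for HADHA. It was 0.48 for ACSL1 and 0.02 for ACADVL. CPT1A was at -1.36, CPT1B at -1.37 and CPT2 at -1.02, which are percentiles 16.7, 16.5 and 27.0 of all genes. The transferases thus lay below the common shift and the other 7 genes above it.

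Across the genes of the table this difference went with transcript length and GC content. Spearman's rho across genes, which are not independent, was -0.32 with length and -0.17 with GC content, for the 92.5% of genes matched to a RefSeq transcript. The median difference was -0.27 in the fifth of genes with the lowest GC content and -0.67 in the fifth with the highest. Over the matched genes the medians were 50% GC and 3639 bases. ACADM (37.4% GC, 1830 bases), ACADL (41.9% GC, 1703 bases) and HADHB (45.5% GC, 2385 bases) lie below both. CPT1B (59.8% GC, 2849 bases) and CPT2 (56.7% GC, 3016 bases) are richer in GC but shorter. The same holds for HADHA (51.5% GC, 2712 bases) and ETFDH (51.4% GC, 2510 bases). CPT1A (53.7% GC, 4284 bases) and ACSL1 (50.9% GC, 4062 bases) lie above both. ACADVL, with 59.0% GC over 4417 bases, lay above the median difference of all genes. After subtracting the median of genes of like GC content and length in each library, a correction chosen after the data were seen, 7 of the 10 genes were higher in both replicates 4 and 5 (ACSL1, ACADVL, ACADM, ACADL, HADHA, HADHB and ETFDH, beside 26.4% of 9408 genes) and CPT1B alone was lower (beside 27.2%).

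**Figure D4:**
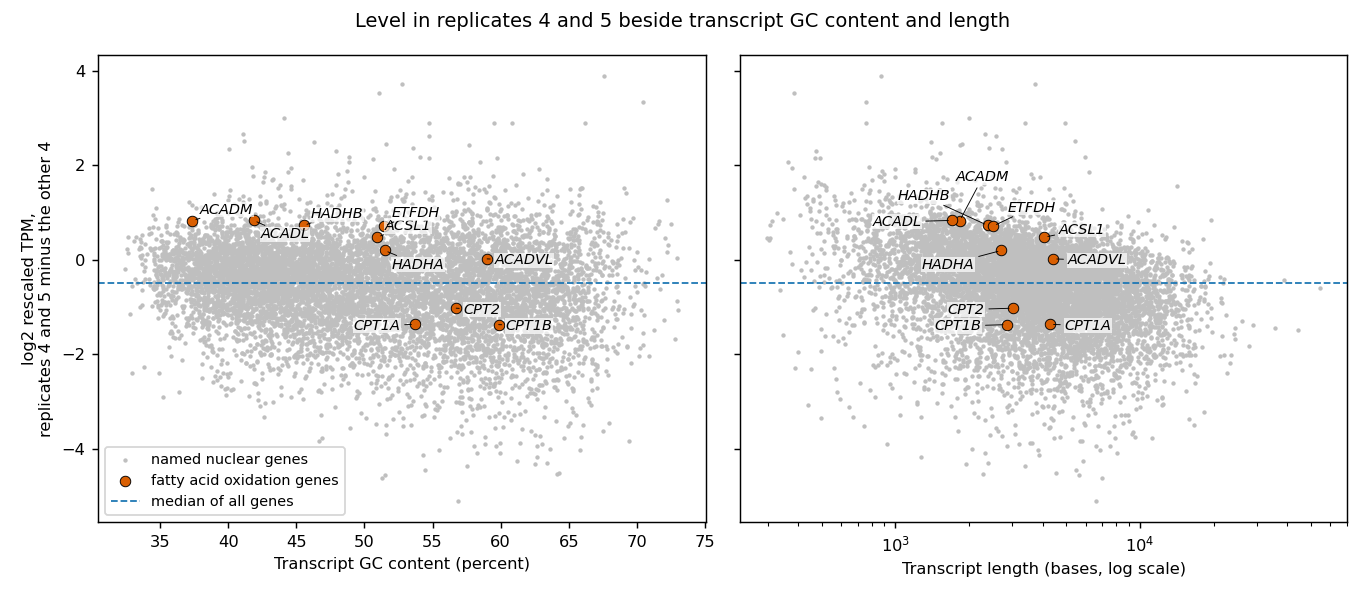
Log2 rescaled TPM in replicates 4 and 5 minus the other 4 libraries, against GC content (left) and length on a log axis (right) of the longest RefSeq transcript, for named nuclear genes (grey) and the 10 genes (orange), with the median of all genes as a dashed line. CPT1A, CPT1B and CPT2 lie below the dashed line at -0.48 and the other 7 above it.

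Summed markers of other cells differed between the same libraries, as did some adipocyte genes. Of the 8 adipocyte genes, PLIN1 and LIPE were lower in both replicates 4 and 5, and CIDEC and GPD1 higher. LIPE was at 577.1 and 423 against 1046 to 1519 rescaled TPM, and CIDEC at 891.6 and 855.6 against 391.4 to 646.9. The median log2 difference was -0.23 for the adipocyte list, -0.63 for the endothelial and -0.83 for the macrophage list, beside -0.48 over all genes. The liver list lay above that common shift. A change in cell shares was not tested. The 5 macrophage markers, all detected, summed to 351.4 and 204.3 rescaled TPM in replicates 4 and 5 and to 431.6 to 570.8 in the other 4, and 3 of the 5 were lower in both, beside the background of 48.3%. CD68 was at 8.74 and 6.56 against 43.7 to 80.7 rescaled TPM, whereas CD163 (129.4 and 67.1 against 126.2 to 201.4) and MRC1 (155.6 and 95.7 against 135.9 to 222.0) overlapped. The 4 endothelial markers with an ID of 5 summed to 605.5 and 735.9 against 1034 to 1322. Of these, 3 were lower in both, beside the same 48.3%, and TEK overlapped (49.4 and 62.2 against 46.1 to 107.9). The 7 liver genes summed to 1315 and 1594 against 201.1 to 1190, where 1190 was replicate 2, and ALB was at 771.7 and 1091 against 47.6 to 794.0 rescaled TPM, while SERPINA1 was listed at 0 in 5 of 6 libraries. The 5 kidney genes summed to 0.243 or less in replicates 4 and 5 and to at most 14.9 elsewhere, each listed at 0 in at least 1 library. Cardiac muscle and skeletal muscle genes summed to at most 7.50 and 14.1. The part of any of these in the levels of the fatty acid oxidation genes was not tested.

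The other genes of the pathway were taken from 7 lists of 35 genes, of which 31 had an ID. SLC22A5, ACOT2, ECI1 and ACACB had none. Of the 31, 28 were above 0.1 TPM in all 6 pigs, and the median of their mean levels was 72.4 rescaled TPM, with 11 above the median of the 10 genes. On the rescaled scale, 7 of the 31 were higher in both replicates 4 and 5 than in each of the other 4 libraries and 7 were lower, beside the backgrounds of 9.63% and 48.3%. The higher were ACSL3, ACAD9, ECHS1, ACAA2, ETFA, ESRRA and ACAT1. The lower were CRAT, ACAD11, HADH, PPARD, PPARG, PPARGC1A and PPARGC1B. Chain-shortening enzymes thus stood on both sides.

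Among the other activation and shuttle genes (7 with an ID), CRAT, the carnitine acetyltransferase, had the highest mean, 161.8 ± 72.0 rescaled TPM (SD, n = 6), and ACSL6 the lowest, 0.114. Of the 8 other chain-shortening genes, HADH, the short-chain hydroxyacyl-CoA dehydrogenase, stood above the means of all 10 genes at 607.7 ± 97.5 rescaled TPM (SD, n = 6), and its 6 values ran from 483.7 to 738.5. ACAD9, a dehydrogenase needed for complex I assembly, was the lowest at 12.3. The enzymes for unsaturated chains were at 115.1 for DECR1 and 78.5 for ECI2. ETFB and ETFA, the subunits of the flavoprotein that ETFDH oxidises, were at 162.95 ± 37.6 and 128.5 ± 29.8 rescaled TPM (SD, n = 6), both below the mean of ETFDH.

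Control genes spanned a wide range. PDK4, a kinase that restrains pyruvate oxidation, was at 1100 ± 448.6 rescaled TPM (SD, n = 6), from 528.4 in replicate 3 to 1788 in replicate 1. PPARGC1A, the coactivator PGC-1 alpha, was lowest of the 8 control genes at 0.653, from 0.259 to 1.04. MLYCD, which degrades the CPT1 inhibitor malonyl-CoA, was at 3.38 ± 0.703. In the ketone body list OXCT1, the enzyme with which tissues outside the liver use ketone bodies, was at 1480 ± 254.5 rescaled TPM (SD, n = 6), and BDH1, the hydroxybutyrate dehydrogenase, was lowest of the 3 genes at 13.0 ± 3.57. OXCT1 lay between 1097 and 1875 and BDH1 between 8.07 and 18.3.

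**Figure D5:**
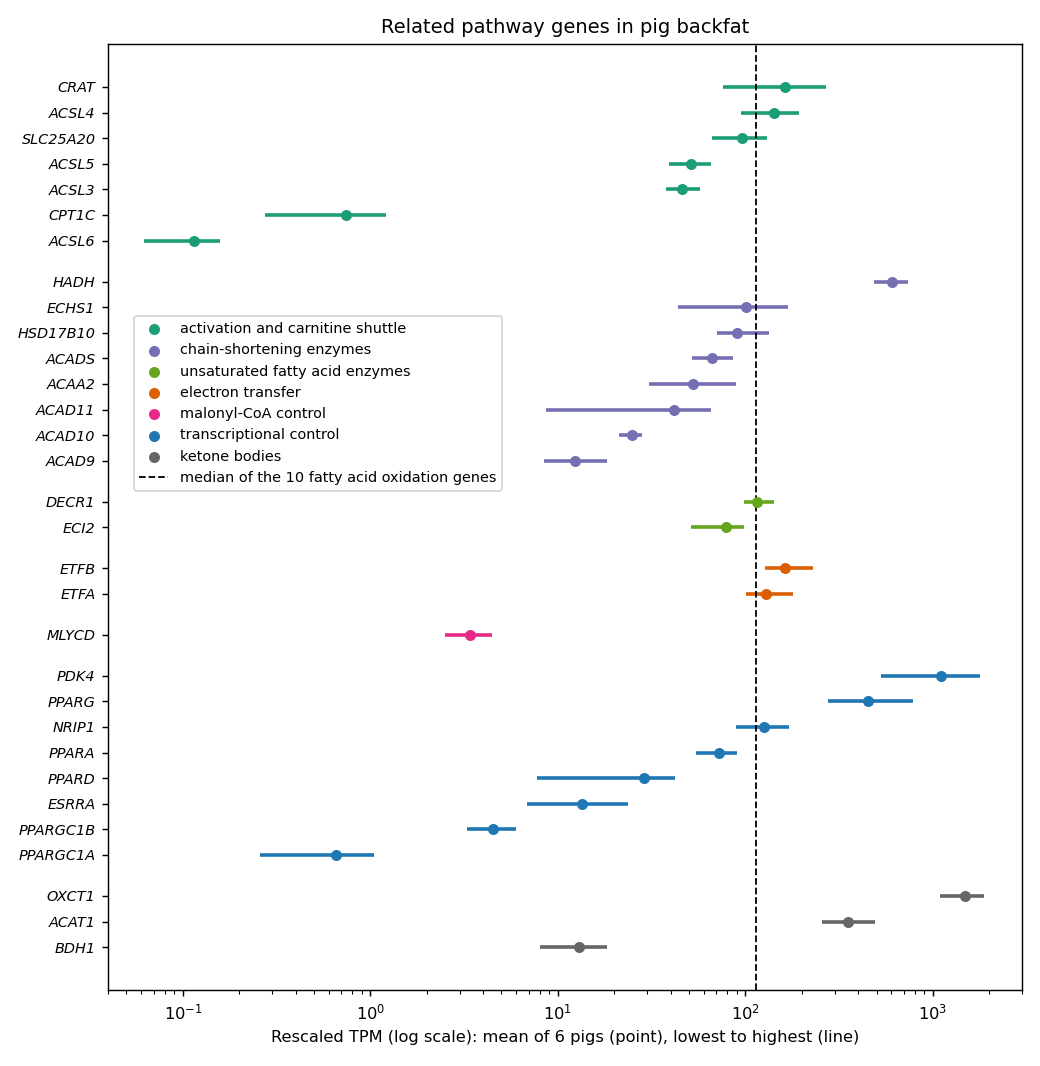
Mean rescaled TPM of the 31 related pathway genes over 6 pigs (point) with the lowest and highest library (line), log axis, coloured by list, and the median of the 10 fatty acid oxidation genes as a dashed line. OXCT1 and PDK4 lie at the right, above 1000, and ACSL6 and PPARGC1A at the left, below 1.

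As a comparison, the 14 genes with an ID of 16 for peroxisomal beta-oxidation, which shortens very long and branched chains, had a median of mean levels of 58.5 rescaled TPM. The 57 nuclear genes taken by symbol as subunits of oxidative phosphorylation had 127.4, beside 113.4 for the 10 genes. They include NDUFA4L2, taken in by its symbol alone, the lowest at 2.16 rescaled TPM and counted among those lower in replicates 4 and 5. On the rescaled scale the peroxisomal list had in replicates 4 and 5 2 of 14 genes higher and 3 lower than in each of the other libraries, and the oxidative phosphorylation list 37 of 57 higher and 5 lower, beside those same backgrounds. The median log2 difference was 0.02 for the peroxisomal list and 0.67 for the oxidative phosphorylation list, against 0.34 for the 10 genes. These lists were not tested against each other.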

How the data were processed

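Total RNA from backfat was depleted of ribosomal RNA, made into stranded libraries and sequenced by the authors, who quantified it with kallisto 0.43.0 (per the submitters' processing notes) and deposited TPM per Ensembl gene, 1 table per species. For the transcript set, the release is not given in the sources used. TPM keep no read depth, so depth is unknown and precision comes from the spread between the 6 pigs alone. Gene IDs were matched to symbols with a reference table, and 57.4% of the 25880 in the pig table had one. Rescaled TPM set the named nuclear genes of a library to a total of 1000000. The 10 genes and all lists were chosen with earlier results of these data known.

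Ratios were tested by an exact sign-flip permutation test (64 sign patterns). Levels, CVs and counts carry no test. Genes of a list were named if highest or lowest by mean rescaled TPM or if 1 library stood far apart (Dixon's limit, 0.625), HADH, OXCT1 and BDH1 among them, and ETFA, ECI2 and MLYCD complete their short lists. Of the pathway lists, 2 genes are not reported here and enter no count. Alternatives were median-centring, quantile normalization, a pseudocount of 1, other filters, left-out libraries, and correction in 10 by 10 bins of GC content and length. Coordinates and sequence are from the RefSeq annotation of Sscrofa11.1, the build that the study names. Scripts used Python 3.11.15, pandas 2.3.3, NumPy 2.4.6, SciPy 1.17.1, pysam 0.24.0 and matplotlib 3.10.9, and were tested on simulated data.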

Additional observations from a re-analysis of the deposited data

Results flagged for a closer look

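In 3 of 51 sets of 6 values examined, 1 library lay farther from the rest than Dixon's limit for 6 values, which chance gives in about 1 of 20 sets. ACADVL was at 40.98 rescaled TPM in replicate 6, below 44.5 to 46.5 in the other libraries, a small step set against a very narrow range. ACADL was at 262.7 rescaled TPM in replicate 5, above 102.8 to 145.4 elsewhere. DECR1, a reductase for unsaturated acyl chains, was at 142.5 rescaled TPM in replicate 5, above 97.7 to 114.3 elsewhere. Replicate 5 held 4.73% of its TPM in named nuclear genes, and the part of that in these values was not tested.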

How the results depend on the processing

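A count or CV was taken as unchanged within 1.5 times, a level or share within 1 SD, and a ratio by its direction and its side of an adjusted p of 0.05. By these limits 51 of 96 alternatives left a result unchanged, 10 moved it, and 35 took the adjusted p of a ratio above 0.05. Some of the 51 could not have come out otherwise and say nothing about stability. The counts among the 10 genes do not depend on which background genes are kept. A pseudocount keeps the sign of each ratio, so the 5 ratios of 1 direction keep the smallest p. The ratio of CPT1A to CPT2 could not pass with libraries left out. No ratio changed direction. Those 35 all left out libraries from the 5 ratios that had passed, where the exact permutation test allows no p below 0.0625 with 5 pigs or 0.125 with 4, so they say nothing about stability of the call. Leaving out 1 pig at a time gave mean log2 ratios of 1.39 to 1.77 for CPT1A to CPT1B, -2.88 to -2.65 for ACADVL to ACADM, -1.65 to -1.38 for ACADVL to ACADL, 1.16 to 1.27 for ACADM to ACADL and -1.003 to -0.83 for HADHA to HADHB. Without replicates 4 and 5 they were 1.55, -2.51, -1.30, 1.22 and -0.77. The median level of the 10 genes was 18.3 TPM as deposited and 113.4 on the rescaled scale, a change of unit. Their median CV of 0.593 became 0.370 after rescaling, 0.344 after quantile normalization, 0.392 after GC and length correction and 0.169 without replicates 4 and 5. The 5 genes higher in both replicates 4 and 5 became 0 as deposited, where all 5 were lower, a reversal of direction, and 6, 6 and 7 after median-centring, quantile normalization and GC and length correction. The 3 that were lower became 10 as deposited, 0 after median-centring, 0 after quantile normalization and 1 after GC and length correction, so a direction for CPT1A, CPT1B and CPT2 in these 2 libraries depends on the scaling. The cause was not tested. No paired analysis was possible because the pigs formed 1 group and the rat libraries, which share replicate numbers with them, are other animals in a separate table. With no depth in the files, no counting error can be given for the low values of CPT1B.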
